A study of Homo sapiens with 4 samples.

Results

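*CD274*, the gene for the checkpoint ligand PD-L1, was compared with all other transcripts among single OVCA420 cells after 7 days of TGF-β1. OVCA420 is an established epithelial ovarian cancer line, and TGF-β1 is the cytokine that was used to drive its epithelial-mesenchymal transition (EMT). The 7-day culture received 10 ng/mL TGF-β1 and the Ctrl culture none, with cultures collected after 1 and 3 days of TGF-β1 in between, and each time point was 1 library of 10x 3′ single-cell RNA-seq. A cell entered when it had more than 200 detected genes, at most 20% of its unique molecular identifiers (UMIs, each standing for 1 captured transcript) on mitochondrial genes and at least 18000 UMIs in all. Of the 2970 cells read from the 4 libraries that met these limits, 549 were 7-day cells, and 193 of them carried at least 1 *CD274* UMI (CD274-positive) while 356 carried none (CD274-negative). Each library was read only over its first complete cells in barcode order, 572 of 2484 barcodes at 7-day. The 2 groups were chosen by *CD274* itself, so its own level is a description of the choice. Because a deep cell has more chances to show a rare transcript, every cell was thinned at random to 18000 UMIs before other genes were compared.

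PD-L1 is a membrane protein that engages PD-1 on T cells and restrains their activity. Its gene is classically induced by interferon-γ through JAK kinases, STAT factors and IRF1, and it can also be raised by inflammatory NF-kB signaling and by growth factor signaling. On the protein side, CMTM6 keeps PD-L1 at the cell surface, whereas GSK3B and ubiquitin ligases such as SPOP favor its breakdown. Carcinoma cells in EMT often combine such immune genes with integrins, laminins and secreted proteases of the invasive front.

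*CD274* (ENSG00000120217) lies on chromosome 9 at 5450503 to 5470566 on the plus strand of GRCh38. Its upstream sequence is shown with those of *G0S2*, the gene with the highest ratio between the groups, and of the chemokine gene *CXCL1*, because they differ in the letters of inflammatory response motifs. Each stretch holds 210 bases, ends 40 bases before the gene's start in RefSeq and comes from the GRCh38.p14 plus strand. For *CD274* this is chr9:5450292-5450501, for *G0S2* chr1:209675162-209675371 and for *CXCL1* chr4:73869143-73869352. Capitals mark matches on either strand to 4 patterns, namely GAS (TTCNNNGAA, the form that STAT dimers recognize), ISRE (GAAANNGAAA, recognized by interferon regulatory factors), NF-kB (GGGNNTTTCC) and AP-1 (TGANTCA).
CD274: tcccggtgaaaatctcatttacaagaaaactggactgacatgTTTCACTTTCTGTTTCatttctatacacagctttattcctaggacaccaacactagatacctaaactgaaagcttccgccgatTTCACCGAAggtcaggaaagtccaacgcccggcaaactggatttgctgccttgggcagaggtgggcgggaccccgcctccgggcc
G0S2: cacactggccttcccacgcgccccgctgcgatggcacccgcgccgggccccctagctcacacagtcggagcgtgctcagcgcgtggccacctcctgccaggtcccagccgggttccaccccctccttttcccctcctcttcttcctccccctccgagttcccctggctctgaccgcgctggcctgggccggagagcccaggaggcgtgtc
CXCL1: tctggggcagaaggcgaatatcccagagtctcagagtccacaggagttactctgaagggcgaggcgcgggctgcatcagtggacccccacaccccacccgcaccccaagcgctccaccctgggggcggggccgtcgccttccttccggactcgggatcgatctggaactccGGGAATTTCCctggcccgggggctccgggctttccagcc
*CD274* held 1 GAS match and 2 ISRE matches that overlap each other and appear as 1 run of capitals, *CXCL1* held 1 NF-kB match, and *G0S2* held none of the 4. Across 35116 RefSeq windows of the same length, 5.73% held the GAS letters, 2.49% the ISRE letters, 1.45% the NF-kB letters and 5.64% the AP-1 letters. Among the 11 of the 15 genes with the highest ratios that had a RefSeq window, 1 held AP-1 letters (*ANKRD1*) and none held the other 3 patterns. Among the 9 of the 15 lowest with a window, 1 held GAS letters (*CDKN3*) and 1 held NF-kB letters (*ELF3*). *CXCL8*, another chemokine gene, held AP-1 letters and no NF-kB letters. A match describes letters in this window only.

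The 7-day library was the one with most *CD274*. Of the Ctrl cells, 1.07% carried a *CD274* UMI (9 of 844), and this share was 0.889% among 1-day cells (8 of 900), 9.90% among 3-day cells (67 of 677) and 35.2% among 7-day cells (193 of 549, exact binomial 95% interval 31.2 to 39.3). Summed over cells, *CD274* stood at 0.312, 0.247, 2.33 and 11.5 CPM (UMIs of the gene per 1000000 UMIs) in the same order. The low shares in Ctrl and 1-day cells were the nearest thing to a background level, since no cell type that lacks *CD274* is present in a culture of 1 line. Depth was unequal, with a median of 31711.5 UMIs per cell in Ctrl and 44018 at 7-day, and after thinning the shares were 0.592%, 0.444%, 2.95% and 16.6%. All intervals here cover counting error only, because 1 culture per time point carries no measure of the spread between cultures.

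Detection at 7 days was sparse. Of the 193 CD274-positive cells, 129 carried 1 UMI, 47 carried 2 and 17 carried between 3 and 6. Thinning left 91 of the 193 with a *CD274* UMI. At full depth, cells that all held *CD274* at the same 11.5 CPM would show it in 40.1% of cases by counting alone, against the 35.2% observed, and the variance over the mean of its UMIs was 1.49. After thinning the expected and observed shares were 17.0% and 16.6%, and the variance over the mean was 1.03, beside a median of 1.04 for 1291 genes of like abundance. CD274-negative therefore describes a count of 0, and a cell of that group may hold *CD274* transcripts that were not captured.

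**Figure D1:**
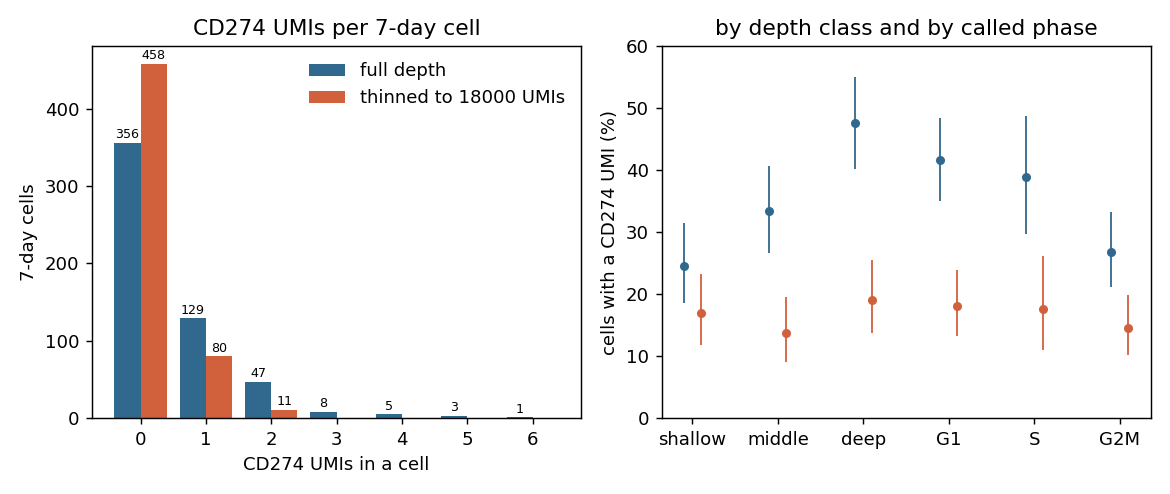
Left, number of 7-day cells (y axis) by *CD274* UMIs per cell (x axis), at full depth and after thinning to 18000 UMIs. Right, percentage of 7-day cells with a *CD274* UMI (y axis, exact binomial 95% intervals) by depth (3 equal classes of total UMIs, shallowest to deepest) and by called cell cycle phase; the full-depth share climbs from 24.6% in the shallowest class to 47.5% in the deepest, and the thinned shares lie between 13.7% and 19.1%.

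Several measures moved with the grouping. The median CD274-positive cell had 48049 UMIs and the median CD274-negative cell 41917.5. In 3 equal classes of cells from the shallowest to the deepest, 24.6%, 33.3% and 47.5% were CD274-positive. Phase scoring called 47.7% of positive and 36.2% of negative cells G1, 21.8% and 18.5% S, and 30.6% and 45.2% G2M, and by phase the CD274-positive share was 41.6% in G1, 38.9% in S and 26.8% in G2M cells. After thinning these 3 shares were 18.1%, 17.6% and 14.5%, with overlapping intervals. Scrublet marked 9 of 193 positive cells as doublets (4.66%) and 2 of 356 negative cells (0.562%). Mitochondrial share did not separate the groups, at medians of 6.27% and 6.29%, and 8 cell barcodes of the 549 also occurred in another library, counted pair by pair.

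Both groups carried epithelial transcripts, and the ovarian origin of the line is taken from its label. The keratin genes *KRT7*, *KRT8*, *KRT18* and *KRT19* stood between 592 and 1396 CPM in positive cells and between 587 and 1257 CPM in negative cells, and *EPCAM*, an epithelial adhesion gene, at 282 and 304 CPM. The ovarian tumor markers *MUC16*, *PAX8*, *WT1* and *MSLN* were at or near 0 in both. Of 7 leukocyte markers 2 had any UMI, with sums of 5.76 and 6.24 CPM that were nearly all the lysosomal gene *CD68*, and *PTPRC*, *CD3D*, *CD3E*, *MS4A1* and *NKG7* were at 0. Of 5 fibroblast markers 2 had a UMI (sums of 0 and 0.312 CPM, with *DCN*, *PDGFRA* and *COL1A2* at 0), and of 4 endothelial markers 2 had a UMI (0.288 and 0.624 CPM, with *CLDN5* and *VWF* at 0). Of 4 mesothelial markers 3 had a UMI, at sums of 13.5 and 13.4 CPM, with *ITLN1* at 0.

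Over the other genes the groups were alike for the most part. Of 3010 genes at 50 CPM or more in either group, 73 (2.43%) stood at least 25% higher in CD274-positive cells and 102 (3.39%) at least 20% lower, which is past 0.32 on the log2 scale in either direction and is the limit meant by passing. The median log2 ratio of positive over negative over these genes was -0.02. A gene near 50 CPM could enter through the group where it stood higher, which favors larger ratios among such genes. When the totals were instead matched by the median of the gene ratios, 98 stood higher and 73 lower, which moved the higher share of these calls from 41.7% to 57.3%. With 1 library these are descriptions of size and not tests. The highest ratio was that of *G0S2* and the lowest that of *ID1*.

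**Figure D2:**
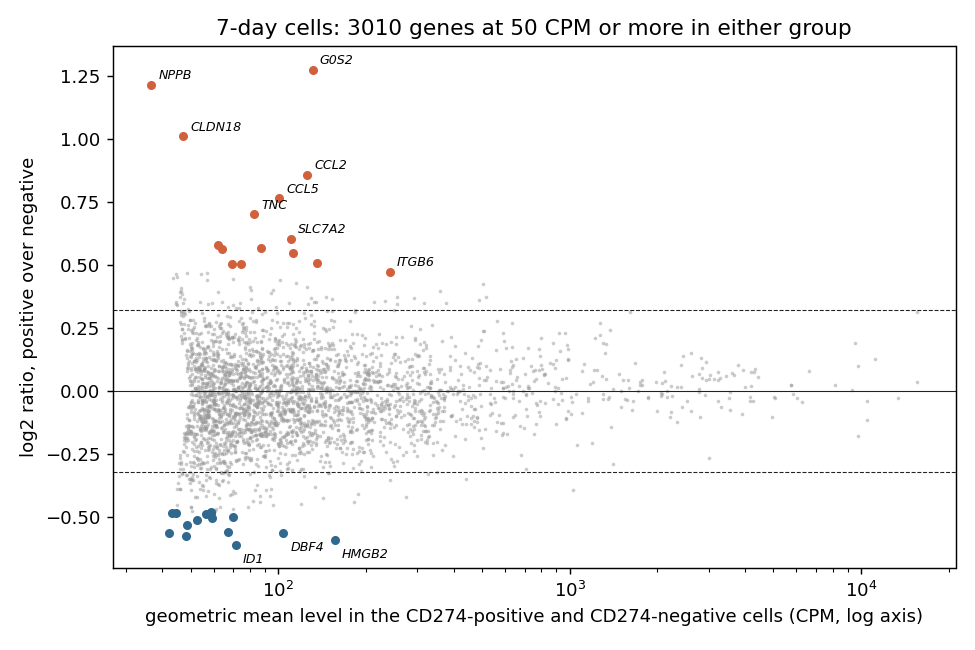
Log2 ratio of CD274-positive over CD274-negative 7-day cells (y axis) against the geometric mean of the 2 levels in CPM (x axis, log scale) for 3010 genes after thinning. Orange and blue points are the 15 highest and 15 lowest genes, dashed lines mark the limits of 0.32 and -0.32, and *G0S2* at the top reaches 1.28 while *ID1* at the bottom reaches -0.61.

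*G0S2*, which encodes an inhibitor of adipose triglyceride lipase, had the highest ratio. Its UMIs per thinned cell ran from 0 through a median of 0 to 77 in CD274-positive cells and from 0 through a median of 0 to 54 in CD274-negative cells, so that the groups overlapped and a minority of cells held most of the transcript. It was detected in 33.2% of positive and 25.8% of negative cells. Its level was 204 CPM in positive and 84.3 CPM in negative cells, a log2 ratio of 1.28 (95% counting interval 1.11 to 1.44). *G0S2* was one of the transcripts of the late culture, at 0.197 CPM over all thinned Ctrl cells, and at 0.679, 13.6 and 126 CPM over those of 1-day, 3-day and 7-day.

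The chemokine genes *CCL2* and *CCL5*, whose products attract monocytes and T cells, shared this pattern. *CCL2* ran from 0 to 74 UMIs per cell in positive cells and from 0 to 44 in negative cells, with a median of 0 in both. Its level was 170 CPM against 93.5 CPM (log2 ratio 0.86, 0.69 to 1.03). *CCL5* ran from 0 to 156 and from 0 to 60 UMIs per cell, again with medians of 0, and its level was 132 against 77.4 CPM (0.77, 0.58 to 0.95). *CCL5* was detected in 32.6% of positive and 25% of negative cells, but the 10 cells with most held 49.0% of its UMIs. Of its 457 UMIs in positive cells, 156 came from 1 cell. Its ratio was -0.46 in the first part of the cells in barcode order and 1.59 in the second. At least 1 of *G0S2*, *CCL2* and *CCL5* was missing in nearly every cell: all 3 were found together in 14 of 193 positive cells (7.25%) and in 20 of 356 negative cells (5.62%), and none of them in 57 (29.5%) and 148 (41.6%).

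*NPPB*, the gene of the brain natriuretic peptide, and *CLDN18*, a tight junction claudin, had the second and the third highest ratio. *NPPB* stood at 55.8 CPM in positive and 24.0 CPM in negative cells (log2 ratio 1.22), with highest cells of 14 and 15 UMIs. *CLDN18* stood at 67.1 and 33.2 CPM (1.01), but its highest cell in the positive group held 46 UMIs against 13 in the negative group, and leaving out the 1% of cells with most *CLDN18* took the ratio to -0.05. The ratio of *CLDN18* thus rested on few cells, as this step left out 6 cells. Both *NPPB* and *CLDN18* reached 50 CPM in positive cells only.

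The next genes were spread over more cells. *TNC*, an extracellular matrix glycoprotein, had a median of 1 UMI in positive cells and 0 in negative cells, with highest cells of 18 and 13, and a log2 ratio of 0.70 (0.49 to 0.91). *SLC7A2*, a transporter of arginine and other cationic amino acids, had medians of 2 and 1 UMIs and was detected in 65.8% and 54.5% of cells (0.60, 0.43 to 0.78). *TRAF1*, an adaptor of TNF receptor signaling, was detected in 76.7% and 58.1% of cells (0.57, 0.37 to 0.77), and *PTGS2*, the inducible cyclooxygenase, in 53.9% and 41.6% (0.56). *ITGB6*, the integrin subunit that with αv activates latent TGF-β, had medians of 3 and 2 UMIs and highest cells of 25 and 33 (0.47, 0.35 to 0.59), and *ITGB8*, with a like role, stood at 82.3 and 58.1 CPM (0.50). The rest of the 15 were *ZBED2* (0.58), a transcription factor gene, *ANKRD1* (0.55), a YAP target, *B4GALT1* (0.51), a galactosyltransferase, and *BPGM* (0.51), an enzyme of red cell glycolysis. The ranges over cells overlapped in every one of these 10 genes.

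At the other end, *ID1*, a helix-loop-helix inhibitor of differentiation and a target of BMP signaling, had the lowest ratio. It had a median of 1 UMI in both groups, highest cells of 34 in the positive and 10 in the negative group, and was detected in 50.8% of positive and 66.3% of negative cells. Its level was 57.9 against 88.3 CPM (log2 ratio -0.61, -0.85 to -0.38). The mitotic and S phase genes *HMGB2* (-0.59), *DBF4* (-0.56), *PLK1* (-0.56) and *CDKN3* (-0.56) followed. *HMGB2*, a chromatin protein, had medians of 1 and 2 UMIs and highest cells of 13 and 18, and *CDKN3*, a phosphatase that acts on cyclin-dependent kinases, was detected in 44.0% and 58.1% of cells. *MDK*, the heparin-binding growth factor midkine, stood at 40.3 and 58.4 CPM (-0.53), and *ELF3*, an epithelial transcription factor, at 44.0 and 62.9 CPM (-0.51). The remaining genes of the 15 lowest, *SPRYD7*, *RRS1*, *FAF1*, *DNAJC2*, *RNASEH1-AS1*, *CBR1*, *GAMT* and *PPIG*, lay between -0.58 and -0.48, at 36.6 to 58.7 CPM in positive cells. *PLK1*, *MDK*, *ELF3* and these remaining genes other than *FAF1* reached 50 CPM in negative cells only. *SPRYD7* moved to -0.06 with another random draw of the thinning. *RNASEH1-AS1* is an antisense gene, and the strand setting of the counting is not given in the sources used here.

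Genes were then ordered by the number of *CD274* UMIs, with 356 cells at 0, 129 at 1, 47 at 2 and 17 at 3 or more. *CCL2* stood at 93.5, 158, 186 and 212 CPM in this order, and *SLC7A2* at 89.7, 126, 150 and 180 CPM. *G0S2* stood at 84.3, 189, 183 and 379 CPM. *ID1* stood at 88.3, 63.3, 54.4 and 26.1 CPM, *CDKN3* at 81.5, 59.9, 52.0 and 29.4 CPM, and *ELF3* at 62.9, 48.7, 42.6 and 13.1 CPM. Of the 15 highest genes 2 were higher with each class (*CCL2* and *SLC7A2*), and of the 15 lowest 6 were lower with each class (*ID1*, *CDKN3*, *ELF3*, *RRS1*, *RNASEH1-AS1* and *PPIG*). Both sets of 15 had been chosen by comparing cells at 1 or more *CD274* UMIs with cells at 0. The step away from the class at 0 was therefore largely built into the choice, unlike the order of the later classes. The same was not counted over all genes at 50 CPM or more. These counts therefore have no background to be read against. The last class holds 17 cells and has the greatest median depth before thinning, 63586 UMIs against 41917.5 at 0 *CD274* UMIs. The other 22 did not keep 1 direction, among them *TNC* at 64.8, 109, 100.5 and 91.5 CPM, *ITGB6* at 205, 289, 254 and 330 CPM and *CCL5* at 77.4, 146, 93.4 and 124 CPM, and *CLDN18* was at 9.8 CPM in the last class after 76.8 CPM at 2. *LGALS3*, the galectin-3 gene on which the study's title centers, was level at 87.4, 90.9, 88.7 and 91.5 CPM.

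**Figure D3:**
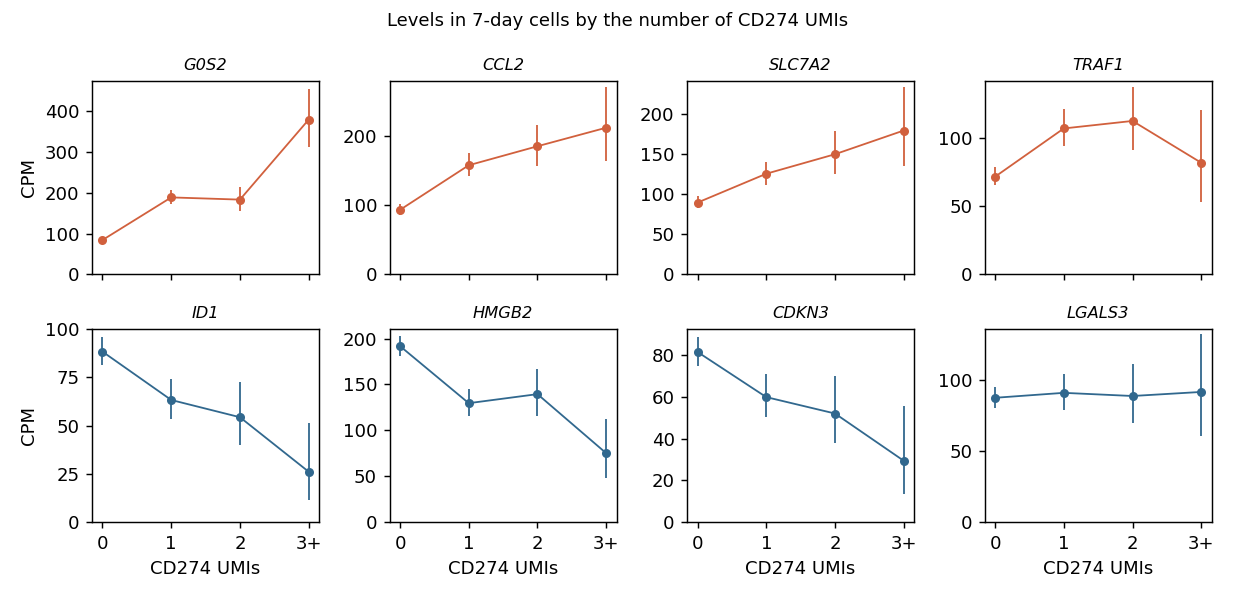
Levels in CPM (y axes, from 0) of 8 genes in 7-day cells with 0, 1, 2 or at least 3 *CD274* UMIs (x axes), after thinning, with 95% Poisson intervals for counting error. *CCL2* and *SLC7A2* are higher and *ID1* and *CDKN3* lower with each class, *TRAF1* turns back in the last class, and *LGALS3* stays near 90 CPM.

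Among regulators of PD-L1 itself, none of 11 members at 50 CPM or more passed in either direction. That count was near the shares over all genes, 2.43% in the higher and 3.39% in the lower direction. The median log2 ratio of the list was 0.02 against -0.02 over all 3010 genes. *CMTM6* stood at 230 CPM in positive and 202 CPM in negative cells (0.19, 0.06 to 0.31), with medians of 4 and 3 UMIs per cell. *GSK3B* stood at 63.3 and 52.7 CPM (0.26), the palmitoyltransferase *ZDHHC3* at 82.9 and 93.9 CPM (-0.18), and the ubiquitin ligase *STUB1* at 211 and 218 CPM (-0.05). Below the 50 CPM limit, *SPOP* stood at 29.6 and 38.4 CPM (-0.37, -0.72 to -0.04). *PDCD1*, the receptor, had no UMI in either group.

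Interferon signaling genes had a small median ratio over few measured members, beside the same shares of 2.43% and 3.39% passing over all genes. Of 6 measured members of the JAK-STAT list 1 passed, the interferon receptor subunit *IFNAR2* at 53.3 and 41.8 CPM (0.35, 0.07 to 0.62), none passed in the lower direction, and the list median was 0.09. *IFNAR2* reached 50 CPM in positive cells only. *STAT3* stood at 69.1 and 56.0 CPM (0.30) and *JAK1* at 140 and 145 CPM (-0.05). Of the upstream genes below 50 CPM, *IRF1* had 37 and 88 UMIs in all, or 10.7 and 13.7 CPM (-0.37, -0.96 to 0.20), and *IFNGR1* stood at 23.3 and 27.6 CPM (-0.24). Of 43 interferon-stimulated genes 3 reached 50 CPM, and 1 of them, *LY6E*, passed in the lower direction (-0.39). *CXCL10*, which was picked out with its values known, had 18 UMIs in positive cells and 0 in negative cells, but 17 of the 18 came from 1 cell. For the HLA class I and peptide loading list, which serves antigen display, 0 of 11 members passed, the median was 0.12 and *TAPBP*, the gene of tapasin, had the highest ratio (0.25).

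Genes of NF-kB feedback and chemokines leaned toward the CD274-positive cells. Of 19 members of the NF-kB list, 4 passed in the higher and 0 in the lower direction (21.1% against a background of 2.43%), and the median was 0.14. They were *TRAF1* (0.57), the caspase-8 regulator *CFLAR* (0.40), the BCL2 family gene *BCL2A1* (0.38) and *TNFAIP2* (0.35), which turned to -0.02 with the limit and thinning at 10000 UMIs, and *BCL2A1* was at 0.25 without thinning. The JAK-STAT list median of 0.09 lay below that of the NF-kB list. This order turned without thinning (0.13 for JAK-STAT and 0.10 for NF-kB) and at 10000 UMIs (0.17 and 0.09). Of 14 chemokines and cytokines, 4 passed in the higher and 0 in the lower direction (28.6%), at a median of 0.19. Besides *CCL2* and *CCL5* these were the neutrophil attractants *CXCL1*, at 410 and 312 CPM (0.40, 0.30 to 0.49), and *CXCL8*, at 552 and 430 CPM (0.36, 0.27 to 0.44). *CCL20* went the other way, at 44.6 and 52.1 CPM (-0.22, -0.51 to 0.05), and reached 50 CPM in negative cells only. By 0, 1, 2 and at least 3 *CD274* UMIs the summed chemokine list stood at 3434, 3922, 4007 and 4167 CPM and the NF-kB list at 1844, 2053, 2073 and 2222 CPM. The list of laminins, integrins and plasminogen activation was also higher with each class, at 9145.6, 10574.5, 10699.8 and 11189.5 CPM. The YAP list turned back in this order, at 2530, 2851, 2954 and 2667 CPM. So did the EGFR list at 3359, 3748, 3962 and 3690 CPM and the TGF-β list at 5212, 5969, 5783 and 6203 CPM. Not every list was ordered in this way, so these orders have no background to be read against.

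Growth factor and matrix lists leaned the same way with small ratios. Over all 3010 genes 2.43% passed in the higher direction and 1324 lay above 0. All 14 measured members of the EGFR ligand and MAPK feedback list lay above 0 and 2 passed, the ligands *HBEGF* (118 against 86.9 CPM, 0.44) and *EREG* (0.33, and 0.09 without thinning), at a median of 0.19. Of 12 YAP and TEAD targets 5 passed (*ANKRD1*, *AMOTL2*, *CTGF*, *CYR61* and *PTPN14*, 0.35 to 0.55), 0 passed in the lower direction, and the median was 0.14. Of 24 genes of laminins, integrins and plasminogen activation 5 passed, all integrins or the urokinase receptor (*ITGB8*, *ITGB6*, *PLAUR*, *ITGAV* and *ITGA2*), 23 lay above 0, and the median was 0.23. The collagen-binding *ITGA2* stood at 333 and 258 CPM.

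TGF-β responsive and mesenchymal genes also leaned up, beside the 2.43% of all 3010 genes that passed in the higher direction and the 1324 that lay above 0. Of 19 members 5 passed in the higher direction, namely *TNC*, the TGF-β activator *THBS1* (588 against 455 CPM, 0.37), the gelatinase genes *MMP9* (0.37) and *MMP2* (0.33) and the collagen gene *COL4A1* (0.33), none passed in the lower direction, and the median was 0.24. *FN1* (fibronectin, 0.32) stayed just inside the limit. The epithelial list did not mirror this, since 21 of its 25 members lay above 0 as well, with *KRT17* at 0.22 and *JUP*, plakoglobin, at 0.21. *ELF3* was the only one of the 25 to pass, in the lower direction (4%, near the 3.39% of all 3010 genes that did). The epithelial median was 0.10 in all cells, -0.01 in G1 cells and -0.10 at 3 days.

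Cell division genes were lower in CD274-positive cells. All 22 measured genes of the G2/M list lay below 0 and 12 passed in the lower direction (54.5% against 3.39% over all genes), at a median of -0.34. *BIRC5*, survivin, stood at 157 and 213 CPM (-0.44, -0.59 to -0.30) and the spindle gene *TPX2* at 81.8 and 112 CPM (-0.45). Of 13 S phase genes 12 lay below 0 and none passed, at a median of -0.19. By 0, 1, 2 and at least 3 *CD274* UMIs the summed G2/M list stood at 5078, 4266, 4407 and 4314 CPM. The S phase list stood at 1808, 1616, 1871 and 1183 CPM in this order, so neither list was lower with each class. These lists also set the phase calls, which differed between the groups as given above. Among cells called G1, 92 positive and 129 negative, the G2/M median was -0.00 and the S phase median 0.13.

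Ratios were also taken within cells called G1. The 15 highest genes were chosen over all cells, which include these, so their direction was partly fixed in advance. Smaller ratios in a part of the cells can follow from that choice alone, and an effect of phase was not tested. Within G1 cells all 15 of the highest genes stayed above 0 but with smaller ratios, at 0.82 for *G0S2*, 0.61 for *NPPB*, 0.50 for *CCL5*, 0.45 for *PTGS2*, 0.43 for *BPGM*, 0.26 for *CCL2*, 0.10 for *ANKRD1* and 0.10 for *ITGB6*. Median ratios of the lists within G1 cells were 0.18 for EGFR ligands, 0.16 for chemokines, 0.14 for YAP targets, 0.11 for NF-kB, 0.09 for laminins and integrins and 0.05 for the TGF-β list. The HLA class I list turned from 0.12 to -0.03, the epithelial list from 0.10 to -0.01, the checkpoint list from 0.10 to -0.01 and the PD-L1 regulators from 0.02 to -0.06, and endoplasmic reticulum stress genes were at -0.11. In G1 cells *ELF3* (-0.89) and *MDK* (-0.92) lay further from 0 than in all cells and *ID1* was at -0.52, whereas *HMGB2* turned to 0.18 and *DBF4* to 0.01. Ratios also moved with the grouping. With groups set by *CD274* UMIs left after thinning, 91 positive against 458 negative cells, *G0S2* was at 0.74 and *CCL2* at 1.44, but *CCL5* was at 0.18 and *ID1* at -0.06, and *PTGS2* (-0.12), *CXCL8* (-0.12) and *MMP2* (-0.18) changed sign. In this grouping *ELF3* was at -0.20 and *CDKN3* at -0.13, both inside the limit. In G1 cells averaged over 3 depth classes, *ZBED2* (-0.01) and *ANKRD1* (-0.04) changed sign. Without the 11 doublets *G0S2* was at 1.26, *CCL2* at 0.89 and *ID1* at -0.64.

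**Figure D4:**
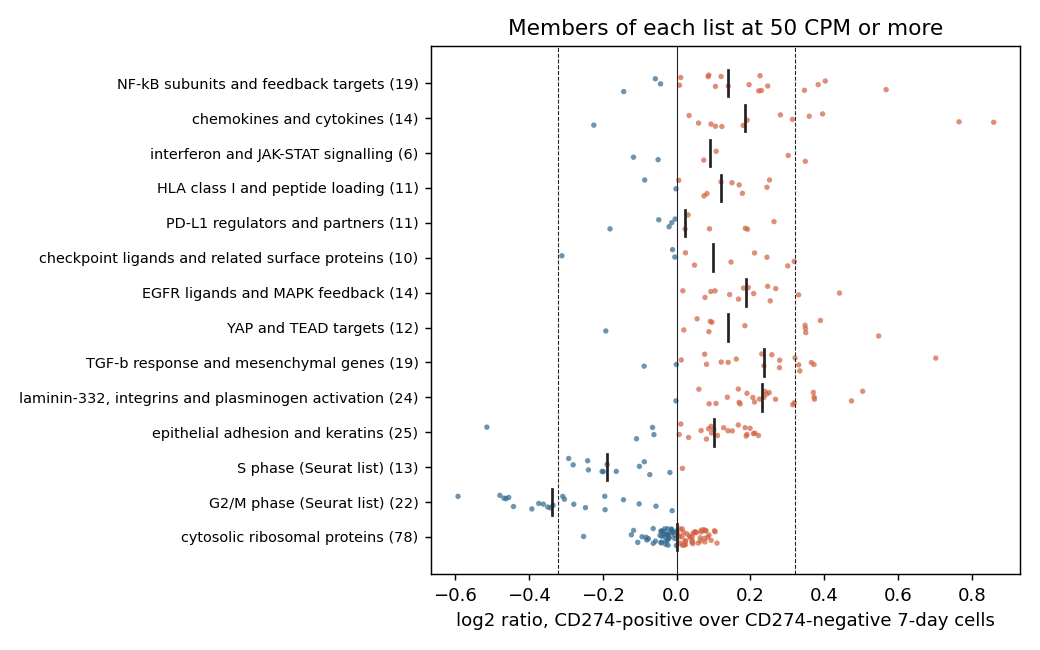
Log2 ratio of CD274-positive over CD274-negative 7-day cells (x axis) for every member at 50 CPM or more of 14 gene lists (rows, number of members in brackets), after thinning. Points above and below 0 are orange and blue, black bars are medians and dashed lines mark the limits of 0.32 and -0.32; the G2/M list lies entirely below 0 at a median of -0.34, and the ribosomal list is centered on 0.00.

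Several lists had medians between -0.08 and 0.07, where 2.43% of all genes passed in the higher and 3.39% in the lower direction. None of 78 ribosomal protein genes passed and their median was 0.00, none of 12 genes of the mitochondrial genome passed (median -0.00), and none of 11 endoplasmic reticulum stress genes passed (median -0.00). AP-1 and immediate early genes had a median of -0.08 with 0 of 13 passing, p53 targets 0.07 with 0 of 9, and glycolysis and hypoxia genes 0.05 with 1 of 19 (*PLOD2*, a collagen-modifying enzyme, 0.32). Actin cytoskeleton genes were not among these, at a median of 0.12 with 1 of 28 passing (*MSN*, moesin, 0.34).

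None of the 10 measured members of the list of other checkpoint ligands and related surface proteins passed, and the median was 0.10. The count was near the shares of 2.43% higher and 3.39% lower over all genes. *CD276* (B7-H3) came closest at 55.3 and 44.3 CPM (0.32, 0.05 to 0.59), the adhesion ligand *CD58* stood at 51.5 and 41.8 CPM (0.30), and *HMGB1*, an alarmin that is also a chromatin protein, at 636 and 789 CPM (-0.31). *CD276* and *CD58* reached 50 CPM in positive cells only, so they were measured only because they stood higher there. *LGALS3*, a ligand of LAG3, stood at 90.4 and 87.4 CPM (0.05, -0.15 to 0.25), *LGALS1* at 159 and 160 CPM (-0.01), the poliovirus receptor *PVR* at 110 and 108 CPM (0.02) and the macrophage checkpoint *CD47* at 116 and 116 CPM (-0.00). *PDCD1LG2*, which encodes PD-L2 and neighbors *CD274* on chromosome 9, had 7 UMIs in positive and 11 in negative cells, or 2.01 and 1.72 CPM, too few to separate. Of the 23 listed neighbors on chromosome 9, 2 reached 50 CPM, the plasminogen receptor gene *PLGRKT* at 73.1 and 73.0 CPM (0.00) and the mitochondrial kinase *AK3* at 84.9 and 90.5 CPM (-0.09), and *JAK2* had 8 and 16 UMIs.

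The 3-day library, which the choice of 7-day cells did not use, gave a second set of values under the same rule, with 67 positive and 610 negative cells. Positive cells were deeper there too, at a median of 49822 UMIs against 43628.5, with deepest cells of 255430 and 121606 UMIs. After thinning, 20 of the 3-day cells held a *CD274* UMI, so the grouping moved with depth on both days. There 102 of 2920 genes (3.49%) passed in the higher direction and 120 (4.11%) in the lower. Of the 15 genes highest at 7 days, 14 also lay above 0 at 3 days, or 10 when the positive cell with most UMIs of the gene was left out, and of the 73 that passed in the higher direction, 59 did (80.8%), where 47.3% of all 3010 genes did. Leaving out that cell removes no negative cell, so it can only lower a ratio. Of the 15 lowest, 9 lay below 0 at 3 days, or 11 after the same step. The shares of all genes given here are those before this step, and they were not counted after it. Of the 102 lower genes 60 lay below 0 at 3 days (58.8%), near the 52.7% of all 3010 genes that did. At 1-day the 8 positive cells were too few to compare.

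Single cells carried much of the largest 3-day ratios. *G0S2* had a log2 ratio of 3.97 at 3 days, but 1 of the 67 positive cells held 85 of its 105 UMIs there, and without that cell the ratio was 1.60. *CCL5* was at 3.32 and, without the cell that held 49 of its 70 UMIs, at 1.60. *CCL2* was at 2.40 and 1.98, *SLC7A2* at 0.67 and 0.40, *TRAF1* at 0.56 and 0.40, *PTGS2* at 0.78 and 0.49, and *ITGB8* at 0.73 and 0.38, the second value without the highest positive cell. The same step turned *CLDN18* from 0.17 to -0.55, *TNC* from 0.24 to -0.09, *ZBED2* from 0.09 to -0.06 and *ANKRD1* from 0.08 to -0.08. *CCL2* was detected in 13.4% of positive and 6.89% of negative 3-day cells, *G0S2* in 7.46% and 2.95%, and *TRAF1* in 43.3% and 27.9%. *ID1* (-0.67) and *MDK* (-0.72) were lower at 3 days too, and *ELF3* was at 0.03. Several of these genes lay below 50 CPM in both groups at 3 days, namely *TRAF1*, *PTGS2*, *ITGB8*, *CLDN18*, *ZBED2*, *MDK* and *ELF3*. In positive 3-day cells *PTGS2* had 26 UMIs (interval of its ratio 0.11 to 1.39) and *CLDN18* had 10 (-0.95 to 1.12).

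The lists parted at 3 days. Over the 14 NF-kB genes at 50 CPM or more on both days the median was 0.17 at 7-day and 0.18 at 3-day. Over the 8 such chemokines and cytokines it was 0.28 and 0.23, and over the 11 such HLA class I genes 0.12 and 0.10. The G2/M median was 0.03 and the S phase median 0.01 at 3 days, where 34.3% of positive and 35.1% of negative cells were called G2M. Over genes measured on both days, the TGF-β and mesenchymal list was at 0.25 at 7-day and -0.04 at 3-day. In the same order the laminin and integrin list was at 0.22 and 0.03, the EGFR list at 0.19 and 0.03, and the YAP list at 0.27 and 0.07. *NPPB* was on the other side, at 63.0 CPM in positive and 110 CPM in negative 3-day cells (-0.81, -1.16 to -0.47). Whether any of these values differed between the time points was not tested.

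**Figure D5:**
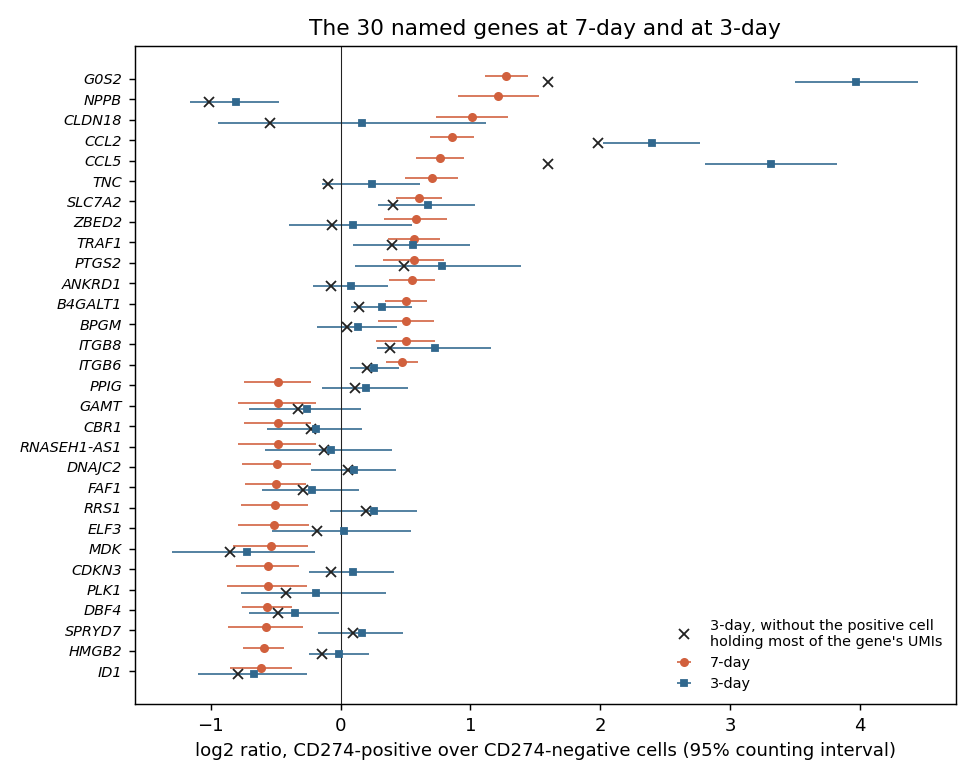
Log2 ratio of CD274-positive over CD274-negative cells (x axis, bars are 95% counting intervals) for the 15 highest and 15 lowest genes of the 7-day cells (rows), at 7-day (circles) and 3-day (squares), and at 3-day without the positive cell that held most UMIs of the gene (crosses). *G0S2*, *CCL2* and *CCL5* stay at 1.60 or more without that cell, and *NPPB* lies on opposite sides of 0 at the 2 time points.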

How the data were processed

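The authors deposited, for each of 4 libraries of OVCA420 cells, a matrix of raw UMI counts per gene and cell with its gene and barcode lists (10x 3′ kit, polyA RNA). The submitters' processing notes name Cell Ranger 2.0.1 and the builds GRCh38 and hg38. Each matrix as used here holds the first complete cells in barcode order, 572 of 2484 barcodes for the 7-day library, and later cells were not analysed here.

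Cells with more than 200 genes, at most 20% mitochondrial UMIs and at least 18000 UMIs were retained. Of the 572 cells, 3 were removed by the mitochondrial limit and 20 were shallower. The 549 cells held 25123249 UMIs (18083 to 111781 per cell). Each cell was thinned without replacement to 18000 UMIs with a fixed seed, counts were summed per group and divided by the summed total (CPM), and genes at 50 CPM or more in either group were described by the log2 ratio with its exact conditional interval. Counts carry exact Poisson and shares exact Clopper-Pearson intervals at 95%. Phases were scored with the Seurat 5.3.0 gene lists in scanpy 1.11.5, and doublets were called with Scrublet and retained in the main values. With 1 library per time point no test was made, and cells are not replicates. UMI intervals cover counting error only, and cells that differ in expression make the true spread wider.

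Named genes were the 15 highest and the 15 lowest by ratio, up to 6 members of each list at 50 CPM or more with the largest absolute ratio, and members of the lists of PD-L1 regulators, checkpoint ligands, interferon signaling and chromosome 9 neighbors at any level. The cell groups, gene lists and alternatives were chosen with earlier results of these data known. Gene positions come from GENCODE and upstream windows from RefSeq, which gave a window for 11 of the 15 highest and 9 of the 15 lowest genes. The thinning and the ratio were tested on simulated data in which cells of a group differed by depth and counting only. That test cannot speak for the intervals where cells differ in expression. Some genes of these lists are not reported here. Alternatives changed the grouping, depth, seed, phase, doublets, mitochondrial limit, cell subset, scaling, trimming and expression limit.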

Additional observations from a re-analysis of the deposited data

Results flagged for a closer look

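*NPPB* and *CENPA* passed the limit of 0.32 on the log2 scale on opposite sides at 7-day and 3-day. *NPPB* had a log2 ratio of CD274-positive over CD274-negative cells of 1.22 at 7-day and -0.81 at 3-day, which is 2.02 higher at 7-day, and its level over all cells was 35.2 CPM at 7-day and 106 CPM at 3-day. *CENPA*, a centromeric histone gene of the G2/M list, had -0.47 at 7-day and 0.35 at 3-day, a difference of -0.82, and was at 0.41 among 7-day cells called G1. With 1 library per time point neither difference was tested.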

How the results depend on the processing

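No paired analysis was possible because each time point is 1 library and no result comes from a test. Under the alternatives, the 30 genes highest or lowest by ratio gave 480 values. Of these, 383 stayed within the main value's counting interval, 88 kept the direction outside it and 9 reversed. Other named list members are outside this count, but their reversed values are given below too. Of 360 list medians, 328 stayed within the main interval, 31 moved outside it and 1 past the limit reversed. The counts of higher and lower genes were 180 and 259 with positive cells at 2 or more *CD274* UMIs, 110 and 161 at 10000 UMIs, 149 and 158 in the first and 132 and 267 in the second part of the cells, 273 and 402 at 20 CPM or more, and 2590 and 2887 with no expression limit, and the lower count was 55 without thinning. The share of CD274-positive cells was 16.6% after thinning and 41.6% in G1 cells. The chemokine median was 0.056 with groups set by thinned *CD274* UMIs. The S phase median was -0.066 at 2 or more *CD274* UMIs, 0.13 in G1 cells, 0.27 in G1 cells averaged over 3 depth classes, and -0.029 and -0.31 in the 2 parts of the cells. The G2/M median was -0.0014 in G1 cells and 0.063 in G1 cells averaged over 3 depth classes.

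Reversed values were, in G1 cells, *HMGB2* 0.18, *DBF4* 0.014, *CENPA* 0.41, *ECT2* 0.29, *SMC4* 0.22, *TMPO* 0.020 and *TOP2A* 0.27, and in G1 cells averaged over 3 depth classes *ZBED2* -0.0068, *ANKRD1* -0.042, *HMGB2* 0.12, *DBF4* 0.18, *CENPA* 0.14, *ECT2* 0.16, *LBR* 0.13, *SMC4* 0.23 and *TMPO* 0.041. With groups set by thinned *CD274* UMIs they were *PTGS2* -0.12, *CXCL8* -0.12, *MMP2* -0.18 and *NUSAP1* 0.035. *CCL5* was -0.46 in the first part of the cells, *CLDN18* -0.054 without its top 1% of cells and *TNFAIP2* -0.015 at 10000 UMIs. The G1 values averaged over 3 depth classes and the mean of each cell's share of its UMIs were chosen after seeing the data. The causes were not tested. Depth limits the grouping, since thinning left 91 of 193 positive cells with a *CD274* UMI.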
